A study of Chlorocebus sabaeus with 4 samples.

Results

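The proteasome genes of the corpus luteum were described in 2 adult female vervet monkeys (Chlorocebus sabaeus), each 16 years old. The corpus luteum is the gland that forms from the follicle after ovulation and makes progesterone. Monkey 1031 was under calorie restriction and monkey 1030 was fed ad libitum, and 2 corpus luteum samples of each animal, numbered 1 and 2, were each hybridised to 1 array with probes designed on human genes. The labels set each animal against itself to follow weight change, do not give the order in which samples 1 and 2 were taken, and name no other treatment. Members were all genes whose platform symbol reads PSMA, PSMB, PSMC, PSMD, PSME, PSMF or PSMG followed by a number, without the interferon-inducible subunits PSMB8, PSMB9 and PSMB10, and each gene was represented by the brightest of its probe sets, by mean over the 4 arrays. This gave 39 genes of 19775 on the array, of which 38 lay at or above the median gene level (mean log2 signal 5.26) that was used as a filter, against 9888 genes in all. They comprised 14 core subunits, 14 cap subunits, 3 cap assembly chaperones, 3 activators, 1 inhibitor and 4 core assembly chaperones. Of genes of the complex outside these 39, PSMB8, PSMB9, PSMB10 and associated genes were only read beside the members. The rest were not analysed here, among them PSMC5, PSMD7, PSMD13, PSMA6 and PSME2. Probe sets of PSMA6 and PSME2 also carry the symbol of another gene.

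The proteasome is the protease that degrades proteins tagged with ubiquitin. Its core is a barrel of stacked rings, with alpha subunits (PSMA) forming the gated outer rings and beta subunits (PSMB) the inner rings that hold the cutting sites. A cap of ATPases (PSMC) and further subunits (PSMD) recognises ubiquitin, removes it, unfolds the substrate and feeds it into the core. Activators of the PSME family open the core without ubiquitin, and PSMG proteins help to assemble it. In the ovary, protein turnover by this route accompanies follicle growth, ovulation and the regression of the corpus luteum.

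All values are log2 signals as deposited, and a change is sample 2 minus sample 1 of the same animal on that scale. Each change rests on 1 array on each side, so it has no replicate check and no test, and genes are counted past 1.5-fold or 2-fold as a rule of size. Median log2 signal over all probe sets was alike in the arrays, between 3.96 and 4.00. Sample 2 of the ad libitum animal was unlike the rest: its pairs with the other arrays had 912 to 1031 genes past 2-fold, and pairs among those arrays 122 to 333. Marker levels also differed by sample. Of 10 measured markers of luteal steroid-making cells, 9 passed the level filter. Of these 9, 4 were 2-fold higher in sample 2 of the calorie restriction animal, where 49 of all 9888 genes were. None was 2-fold lower there, though CYP19A1 was slightly lower (-0.08). All 9 were 2-fold lower in sample 2 of the ad libitum animal, against 6.58% of all genes. The summed signal of 8 endothelial markers, on the log2 scale, was 11.46 and 11.89 in samples 2 and 1 of the calorie restriction animal, against 10.15 and 11.25 in those of the ad libitum animal. Of 8 macrophage markers, 3 were 2-fold higher and 1, CD163, was 2-fold lower in the ad libitum animal's sample 2. Over all genes it was 2.67% and 6.58%. The macrophage markers had a median change of 0.31, with the highest in CHIT1 (3.58). Follicle marker lists had their highest summed signals in the ad libitum animal's sample 2, but not they alone. The macrophage list had 12.50 there, against 11.03 to 11.37 in the other arrays. Smooth muscle and pericyte markers had 13.25, against 12.61 to 13.02, and 6 T and NK cell markers 7.67, against 7.36 to 7.53. Luteal, endothelial and red blood cell lists had their lowest sums there. Of the follicle markers, FOXL2, CYB5A and BMP15 were lower there than in the same animal's sample 1. The summed signal of 6 oocyte markers was 7.46 and 7.67 under calorie restriction, against 9.70 and 7.65 under ad libitum feeding. Of these 6, 3 passed the filter, ZP4 and ZAR1 only through the ad libitum animal's sample 2 (8.30 and 8.12). In the other arrays they lay under it, at 4.13 to 4.65 and 4.42 to 4.68. Their passing is thus no separate sign of a high level in that sample. ZP4 and ZAR1 had changes of 3.64 and 3.70 in the ad libitum animal. The summed signal of 4 theca markers was 10.76 and 11.34, against 12.92 and 11.93, with 2.66 for INSL3. That of 4 granulosa markers was 10.10 and 10.15, against 10.83 and 9.81, with 2.29 for FST. The summed signal of 2 red blood cell markers was 12.99 and 12.36 under calorie restriction, against 10.51 and 11.72 under ad libitum feeding. Of 6 smooth muscle and pericyte markers, MYH11 was 2-fold higher (1.01) and RGS5 2-fold lower (-1.20) in the ad libitum animal's sample 2. In whole tissue, fewer cells of a type and less RNA per cell cannot be told apart.

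Proteasome genes were slightly higher in sample 2 of the calorie restriction animal and lower in sample 2 of the ad libitum animal. In the calorie restriction animal, 32 of the 38 members past the filter had a change above 0, where 45.6% of all genes did, and their median change was 0.20, against -0.03 over all genes. The 6 others were PSMC6, PSMD10, PSMD11, PSME1, PSMG1 and PSMG3, of which PSMD10 and PSMD11 were nearly level. None of the 38 was 1.5-fold or 2-fold apart in that animal, where 5.95% and 1.23% of all genes were. In the ad libitum animal, 36 of 38 members had a change below 0, against 51.4% of all genes, with a median of -0.38, against -0.01. After repeated quantile normalisation 32 of 38 lay below 0 there, against 44.4% of all genes, whose median was then 0.06. With it PSMA4, PSMB4, PSMD5 and PSMG2 turned to small positive changes of 0.03 to 0.14. At 1.5-fold, 14 of 38 were lower, against 15.2% of all genes, and at 2-fold 4 were lower, against 6.58%, of which PSMC4 and PSME4 lay just under 2-fold after cyclic loess or repeated quantile normalisation. No member was 2-fold higher, against 2.67%. The pair of signs, above 0 under calorie restriction and below 0 under ad libitum feeding, was found in 31 of 38, against 27.3% of all genes.

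**Figure D1:**
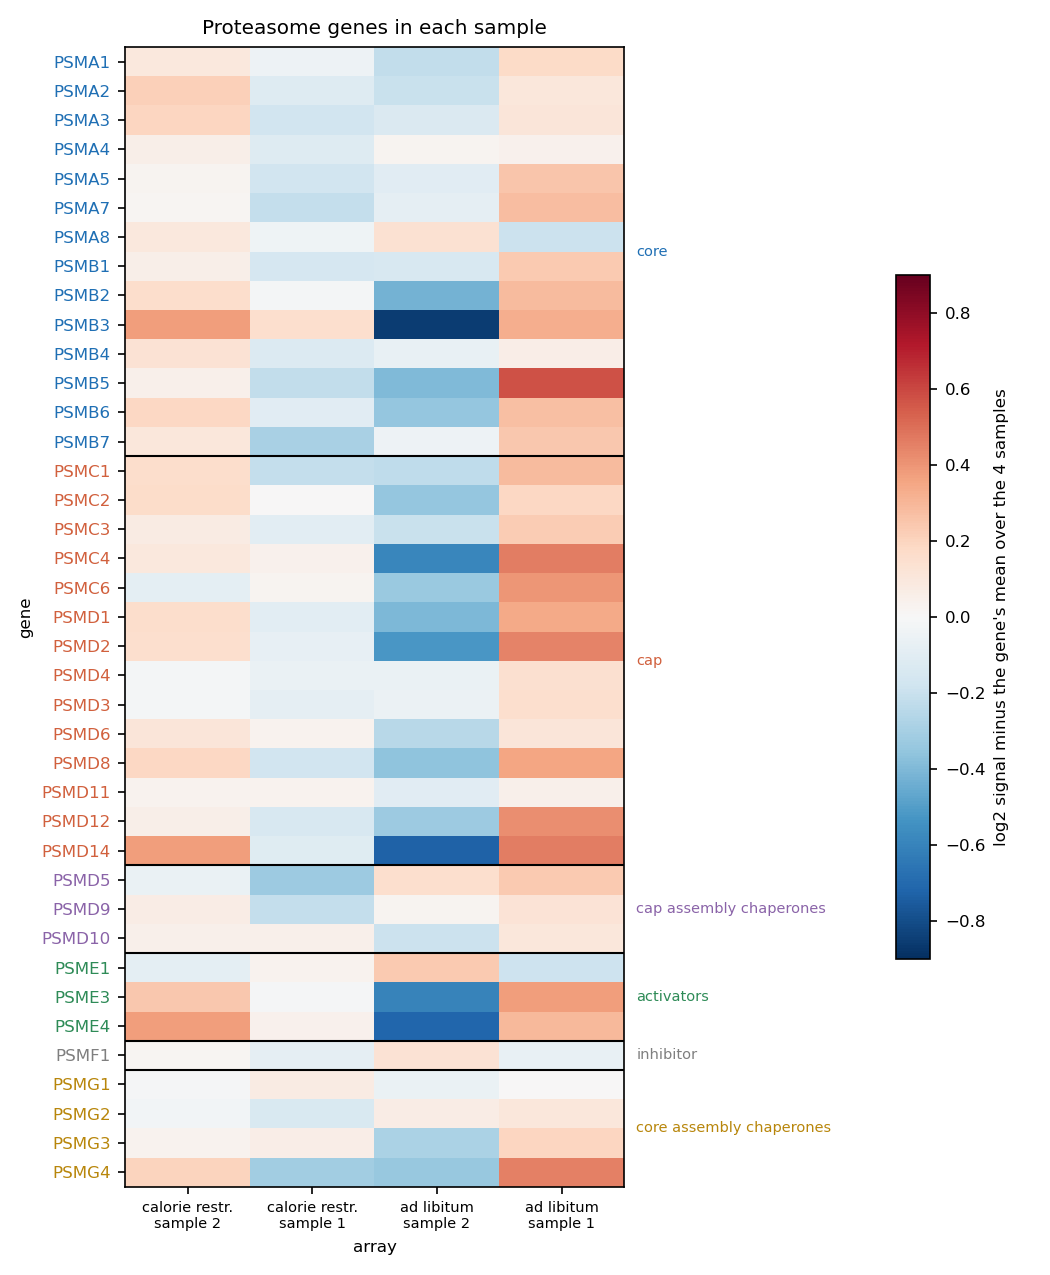
Log2 signal of each of the 39 proteasome genes (rows, coloured by role) in the 4 arrays (columns), as the difference from the gene's mean over the 4 samples. The ad libitum animal's sample 2 is lowest for 25 of the 38 genes past the level filter and its sample 1 is highest for 28. Over all genes past the filter these shares are 36.4% and 26.3%.

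Across the arrays, the ad libitum animal's sample 2 was the lowest of the 4 in 25 of 38 members, where this held for 36.4% of all genes, and its sample 1 was the highest in 28, where this held for 26.3%. The members' median deviation from their own means over the 4 arrays was 0.08 and -0.09 in samples 2 and 1 under calorie restriction, against -0.21 and 0.24 under ad libitum feeding. A technical and a tissue measure took the same order. The spiked-in hybridisation control RNAs had a mean log2 signal of 10.54 and 10.09 in samples 2 and 1 of the calorie restriction animal, against 9.85 and 10.58 in those of the ad libitum animal. The summed signal of the 10 luteal markers, on the log2 scale, was 14.33 and 13.64, and 12.08 and 14.93, in that order of samples. The part of either, or of the other marker lists, in the proteasome changes was not tested. Genes at or above the 75th percentile of level, where 33 members lie, had a median change of -0.03 in the calorie restriction and -0.08 in the ad libitum animal. Of these genes, 56.3% were below 0 in the ad libitum animal, 19.3% were 1.5-fold lower and 8.78% were 2-fold lower. Of the 33 members it was 32, 13 and 4. The 3' minus 5' difference of the GAPDH control probe sets, a sign of RNA integrity, ran from 1.15 to 1.41 and was lowest for sample 2 under ad libitum feeding, and that of the ACTB control ran from 1.48 to 1.73.

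The alpha subunits of the core had small differences in both animals. In the calorie restriction animal the 6 alpha subunits past the filter had changes from 0.14 to 0.37, and in the ad libitum animal from -0.39 to -0.02, and none reached 1.5-fold in either. PSMA1 had 10.65 and 10.50 in samples 2 and 1 of the calorie restriction animal, and 10.33 and 10.72 in those of the ad libitum animal (changes 0.14 and -0.39). PSMA3 had 10.51 and 10.14 under calorie restriction, and 10.19 and 10.42 under ad libitum feeding (0.37 and -0.24). The animals' samples overlapped for both genes. PSMA2 (0.33 and -0.31), PSMA5 (0.19 and -0.35) and PSMA7 (0.23 and -0.36) had changes of similar size and the same pair of signs. PSMA4 (0.17 and -0.02) was nearly level in the ad libitum animal. PSMA8, the alpha subunit known from testis in other mammals, was the member below the filter, with 2.46 and 2.32, and 2.50 and 2.17.

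Among the beta subunits, changes in the ad libitum animal were larger and more varied, with a median of -0.62 over 7 genes against -0.33 over the 6 alpha subunits. Whether the rings differed was not tested. PSMB3, a beta subunit without a cutting site, had 9.70 and 9.48 in samples 2 and 1 of the calorie restriction animal, and 8.48 and 9.65 in those of the ad libitum animal. It was 2.26-fold lower in the ad libitum animal's sample 2 (change -1.18), which lay below the other samples, and 1.17-fold higher in the calorie restriction animal's (0.23). PSMB2, which likewise lacks a cutting site, had changes of 0.17 and -0.71, and PSMB1 of 0.20 and -0.38. PSMB4, at 11.33 and 11.08, and 11.13 and 11.26, had changes of 0.25 and -0.13.

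The 3 catalytic subunits gave the same pair of signs, with unequal sizes in the ad libitum animal. PSMB5, which carries the chymotrypsin-like site, had 8.82 and 8.55 under calorie restriction, and 8.38 and 9.35 under ad libitum feeding, so that sample 2 was 1.20-fold higher in the first animal (0.27) and 1.96-fold lower in the second (-0.97). PSMB6, with the caspase-like site, had 9.88 and 9.59, and 9.35 and 9.97 (0.29 and -0.62). PSMB7, with the trypsin-like site, had 9.57 and 9.17, and 9.41 and 9.70 (0.39 and -0.29). For PSMB5 and PSMB6 the ad libitum animal's sample 2 was the lowest of the 4 arrays, whereas for PSMB7 the calorie restriction animal's sample 1 was.

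**Figure D2:**
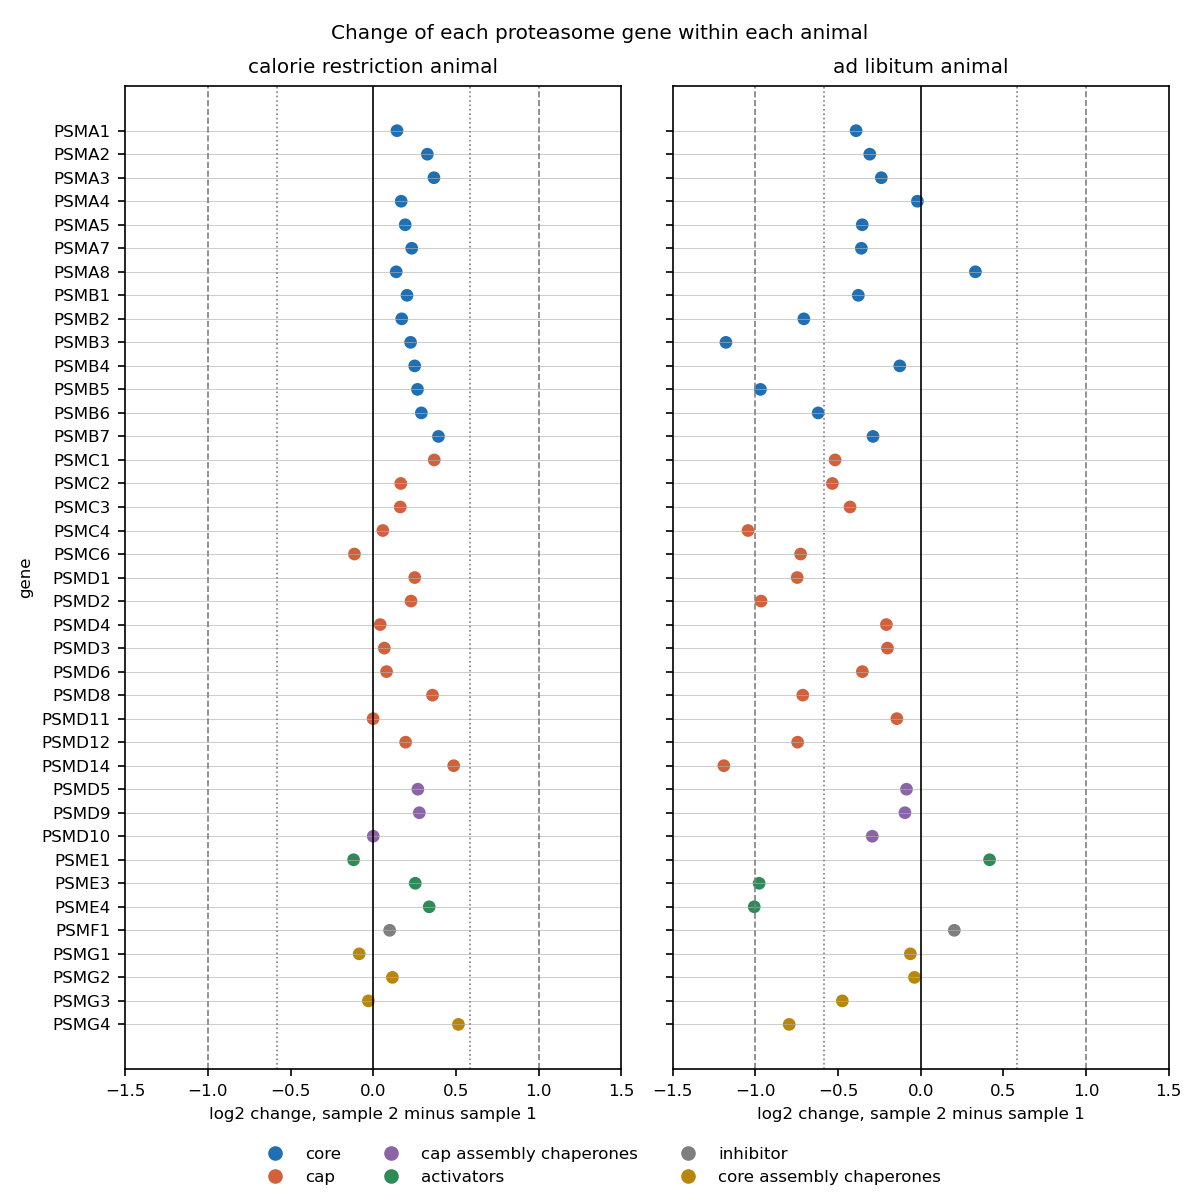
Log2 change (sample 2 minus sample 1) of each proteasome gene in the calorie restriction animal (left) and the ad libitum animal (right), coloured by role, with dashed lines at 2-fold and dotted lines at 1.5-fold. All points on the left lie within 1.5-fold, and on the right PSMB3, PSMC4, PSMD14 and PSME4 lie past 2-fold lower (PSMC4 and PSME4 not after cyclic loess or repeated quantile normalisation).

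All 14 cap subunits among the members were lower in sample 2 of the ad libitum animal, where 51.4% of all genes were. The 14 were lower also after each of the scalings tried. In the calorie restriction animal 12 of 14 were higher, against 45.6% of all genes, and PSMD11 also turned above 0 after those scalings. Other probe sets past the filter read -0.07 for PSMC2 and -0.05 for PSMD1 there, while those of PSMD4 and PSMD12 stayed above 0. Median changes of the cap subunits were 0.16 in the calorie restriction and -0.62 in the ad libitum animal. Those of the 13 core subunits past the filter were 0.23 and -0.36. The cap median under calorie restriction was 0.08 with probe sets averaged per gene, and 0.07 without probe sets named _s_at or _x_at. At 1.5-fold, 7 of 14 cap and 4 of 13 core subunits were lower in the ad libitum animal, against 15.2% of all genes. Over the 3 activators the medians were 0.25 and -0.98, and with probe sets averaged per gene they were -0.042 and -0.58, so the sign under calorie restriction was lost. The differences between core, cap and activators were not tested. PSMD14, the metalloprotease of the lid that cuts ubiquitin chains from the substrate, had the most negative change of any member. It had 9.99 and 9.50 in samples 2 and 1 of the calorie restriction animal, and 8.88 and 10.07 in those of the ad libitum animal. Sample 2 was thus 1.40-fold higher in the first animal (0.49) and 2.28-fold lower in the second (-1.19).

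The ATPases that unfold substrates were led by PSMC4, with 7.74 and 7.68 under calorie restriction, and 7.05 and 8.10 under ad libitum feeding (0.06 and -1.04). PSMC6 was lower in sample 2 of both animals (-0.11 and -0.73), at 6.75 and 6.86, and 6.51 and 7.24. PSMC1 (0.37 and -0.52), PSMC2 (0.17 and -0.53) and PSMC3 (0.16 and -0.43) followed the common pair of signs. For all 5 ATPases among the members the ad libitum animal's sample 2 was the lowest array and its sample 1 the highest. Over all genes these held for 36.4% and 26.3%.

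The large scaffold proteins of the cap base, PSMD1 and PSMD2, had close values of change. PSMD2 had 9.92 and 9.69, and 9.24 and 10.21 (0.23 and -0.97), and PSMD1 had 9.68 and 9.43, and 9.12 and 9.87 (0.25 and -0.75), in the same order of animals and samples. PSMD4, the subunit that binds ubiquitin chains, had 0.04 and -0.21. In the lid, PSMD12 (0.20 and -0.74) and PSMD8 (0.36 and -0.71) were past 1.5-fold in the ad libitum animal. PSMD6 (0.08 and -0.35) and PSMD3 (0.07 and -0.20) were not, nor was PSMD11 (0.00 and -0.14), for which a second bright probe set read -0.35 and 0.13.

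The activators did not share a sign. PSME1, which pairs with PSME2 in the interferon-inducible activator linked to antigen processing, had the highest change among members in the ad libitum animal and the lowest in the calorie restriction animal. It had 9.29 and 9.41 in samples 2 and 1 of the calorie restriction animal, and 9.61 and 9.19 in those of the ad libitum animal (-0.12 and 0.42). PSME3, the nuclear relative of PSME1, had 8.56 and 8.31, and 7.72 and 8.69 (0.25 and -0.98). PSME4, a large nuclear activator that acts on acetylated histones in mouse testis, had 8.96 and 8.62, and 7.87 and 8.88 (0.34 and -1.01). For PSME3 and PSME4 the ad libitum animal's sample 2 lay below every other array, and for PSME1 it lay above them. The probe sets of both genes disagreed. Another probe set of PSME4 past the filter had 0.12 and 0.10, and 3 others of PSME3 had -0.41 to 0.21 in the calorie restriction and -0.93 to -0.03 in the ad libitum animal. Averaged over their probe sets, PSME4 came to 0.10 and -0.65, and PSME3 to -0.042 and -0.58. The inhibitor PSMF1, also called PI31, had 6.45 and 6.35, and 6.56 and 6.36 (0.10 and 0.20), and was the other member past the filter with a change above 0 in the ad libitum animal.

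**Figure D3:**
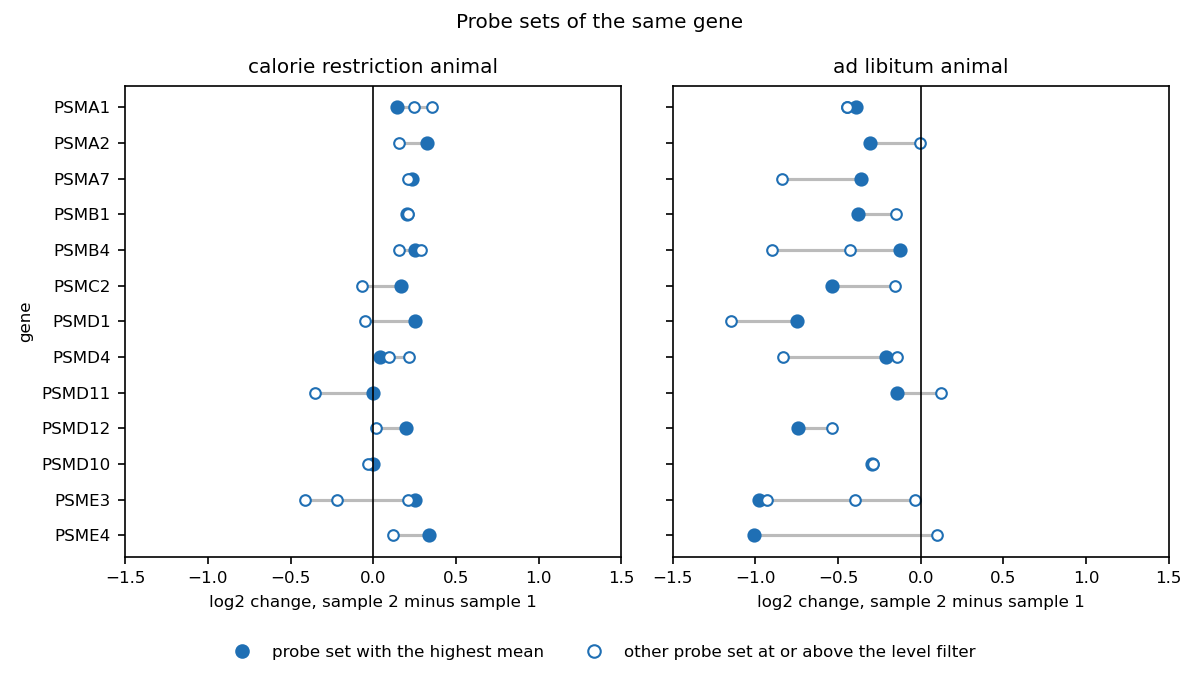
Log2 change (sample 2 minus sample 1) of every probe set at or above the level filter, for the 13 proteasome genes with more than 1 such probe set, in the calorie restriction animal (left) and the ad libitum animal (right). Filled circles are the probe sets used, and open circles the 18 others, of which 16 share the sign of the used one in the ad libitum animal.

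Among the assembly chaperones, PSMG4 was past 1.5-fold in the ad libitum animal and the others were not past it in either. The base chaperones PSMD5 (0.27 and -0.09), PSMD9 (0.28 and -0.10) and PSMD10 (0.00 and -0.29), the last also known as gankyrin, had small values. PSMG1 and PSMG2, partners in building the alpha ring, had changes of -0.09 and -0.06, and of 0.12 and -0.04. PSMG3 had 7.41 and 7.44, and 7.10 and 7.58 (-0.03 and -0.47). PSMG4, the partner of PSMG3, had 9.36 and 8.84, and 8.81 and 9.61 (0.52 and -0.80), the highest change of any member in the calorie restriction animal. Both values rest on 1 probe set, since the other probe sets of PSMG4 lay below the level filter of 5.26.

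Agreement between probe sets was checked over the whole family, PSME3 and PSME4 included. Of 18 other probe sets past the filter, which belong to 13 members, 16 had the sign of the used probe set under ad libitum feeding and 14 under calorie restriction, and 5 differed by more than 0.50 in the ad libitum animal, 3 of them from PSME3 and PSME4. For PSMB4 the others gave -0.43 and -0.90 in the ad libitum animal, against -0.13 from the probe set used. PSMD4 gave -0.83 and -0.14 against -0.21, PSMA7 -0.84 against -0.36, and PSMD1 -1.15 against -0.75. Without probe sets of less specific design (names ending in _s_at or _x_at), 26 members were left past the filter, 23 of them below 0 in the ad libitum animal, where 49.0% of all genes were. The filter, again the median gene level, then lay at 4.58, and the 3 above 0 were PSMD11 (0.13), PSME1 (0.42) and PSMG4 (0.51). PSMB1, PSMB2 and PSMD4 were left with dim probe sets under it, with 0.18, 0.21 and 0.52. In all, 17 members have a single probe set, among them PSMB3, PSMC4 and PSMD14.

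The animals' levels were set against each other over both samples of each, and no member's difference passed the test. Of 38 members, 2 had samples that did not overlap between animals, where 35.3% of all genes did. These were PSMD5, with 6.64 ± 0.19 in the calorie restriction and 7.03 ± 0.06 in the ad libitum animal (SD, n = 2 samples each), and PSMG2, with 9.64 ± 0.08 and 9.81 ± 0.03. With limma, 0 members passed an adjusted p of 0.05 for this difference, and 0% of all genes did. At an unadjusted p under 0.05 it was 0 of 38 members, against 5.28% of all genes. These counts are not separate from the changes within animals. The ad libitum animal's sample 2 was the lowest array in 25 members and its sample 1 the highest in 28, which makes samples overlap. The limma fit takes the same differences between an animal's samples as its spread. Low counts here therefore do not show that the animals' levels were alike. PSMB3 had the largest difference (0.53, SE 0.43, adjusted p = 0.94) and PSMD5 the smallest p (-0.38, SE 0.19, adjusted p = 0.90). The median difference over the 38 members was 0.01, and it was 0.24 without the ad libitum animal's sample 1 and -0.21 without its sample 2. The p-values here take repeat samples of 1 animal as replicates and hold no spread between animals, and with 1 animal per diet, diet and animal cannot be told apart.

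Both animals' changes were also fitted together with limma, with the animal as a block. For a change common to both animals, 0 of 38 members passed an adjusted p of 0.05 (0% of all genes), and 0 had an unadjusted p under 0.05, against 1.82% of all genes. For a change that opposed between animals, fitted as the mean of the calorie restriction change and the ad libitum change with its sign turned, 0 members passed the adjusted p (0% of all genes), and 3 of 38 had an unadjusted p under 0.05, against 7.46% of all genes. These were PSMD14 (fitted value 0.84, SE 0.26, adjusted p = 0.66), PSMG4 (0.66, SE 0.22, adjusted p = 0.66) and PSME4 (0.67, SE 0.25, adjusted p = 0.66). Each fit left 1 residual degree of freedom, and no member's opposition between animals passed the test. That degree of freedom holds the other contrast, so the common fit takes the opposed change as spread, and the opposed fit the common change. The opposed signs in 31 of 38 members thus left the common test little room to pass.

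**Figure D4:**
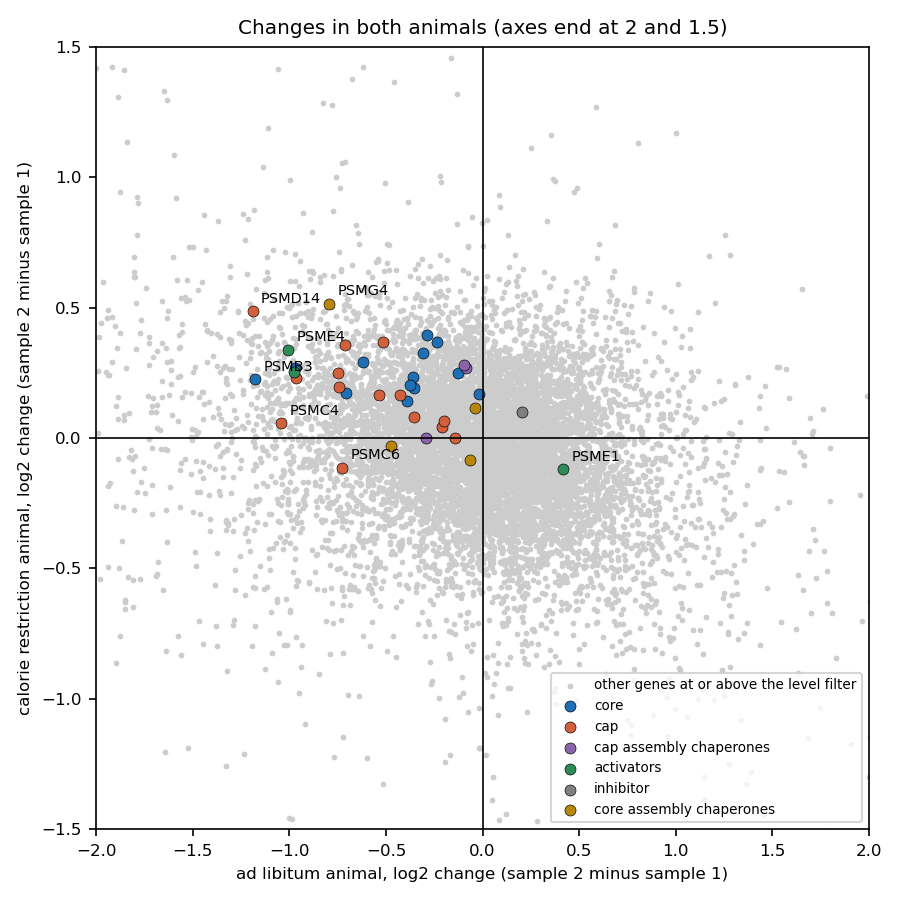
Log2 change (sample 2 minus sample 1) in the ad libitum animal (horizontal axis, shown from -2 to 2) against that in the calorie restriction animal (vertical axis, shown from -1.5 to 1.5), for the 38 proteasome genes (coloured by role) and the other genes past the level filter (grey). In the upper left area, below 0 in the ad libitum and above 0 in the calorie restriction animal, lie 31 of the 38, against 27.3% of all genes. PSME1 lies in the lower right.

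Other genes of the ubiquitin pathway were read beside the members. The inducible subunits that replace the catalytic ones in immune cells or under interferon were lower in the ad libitum animal's sample 2. PSMB10 had 9.15 and 8.30, and 7.60 and 8.84 (0.86 and -1.24), PSMB9 had changes of 0.09 and -1.04, and PSMB8 of -0.08 and -0.58. Of 9 proteasome-associated genes past the filter, 8 had a change below 0 in the ad libitum animal, against 51.4% of all genes, and none was 2-fold lower or higher, against 6.58% and 2.67%. POMP, the chaperone that completes core assembly, had changes of 0.25 and -0.82, and the deubiquitinase USP14 of 0.25 and -0.54. ZFAND5, a zinc finger protein that binds the proteasome, had the opposite signs (-0.46 and 0.24).

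Genes of ubiquitin supply and substrate delivery had mostly small changes in the calorie restriction animal. The ubiquitin gene UBB, at 11.59 and 11.55, and 11.53 and 11.69, had changes of 0.04 and -0.16, and the main ubiquitin-activating enzyme UBA1 of -0.02 and -0.10. The second such enzyme, UBA6, had 0.06 and -0.95. Of 11 shuttle and segregase genes, 3 were above 0 under calorie restriction, against 45.6% of all genes, and 9 below 0 under ad libitum feeding, against 51.4% (medians -0.04 and -0.31). The segregase VCP, which pulls ubiquitylated proteins out of complexes, had changes of -0.08 and -0.70, and its cofactor UFD1 of 0.27 and -0.66. The shuttle UBQLN4 had 0.13 and 0.57. Another shuttle, UBQLN2, had -0.43 and -0.31, the lowest change of this list under calorie restriction. Of 7 regulators of proteasome genes, 1 was above 0 under calorie restriction and 4 were below 0 under ad libitum feeding, against the same 45.6% and 51.4%. NFE2L1, the transcription factor that raises subunit genes when the proteasome is inhibited, had 8.76 and 9.16, and 8.61 and 8.60 (-0.41 and 0.01). NFE2L2 had changes of -0.27 and 0.27, and STAT3 of -0.26 and -0.63. None of these lists was tested against the members.

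**Figure D5:**
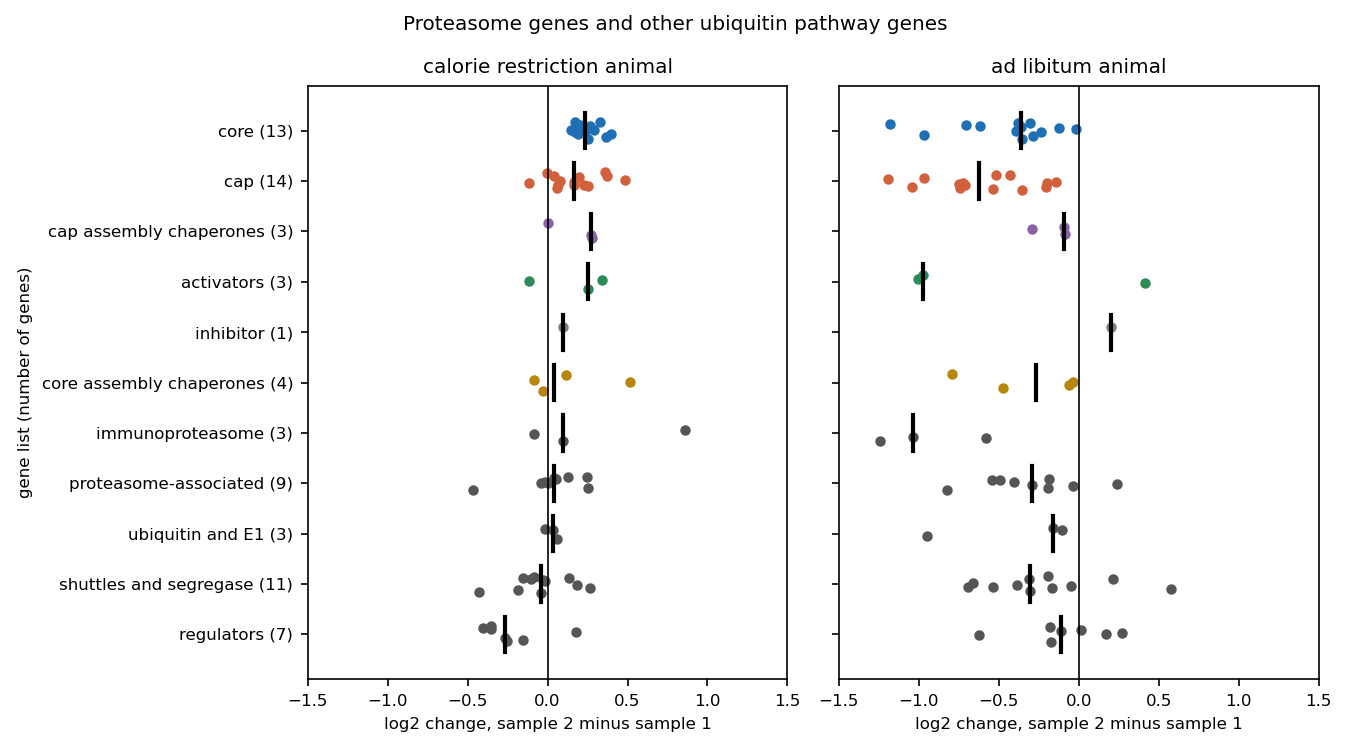
Log2 change (sample 2 minus sample 1) of genes past the level filter by role or list, in the calorie restriction animal (left) and the ad libitum animal (right). Each point is 1 gene and each black bar the list's median, and the bars of core and cap lie at 0.23 and 0.16 on the left and at -0.36 and -0.62 on the right.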

How the data were processed

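For 4 arrays, 1 per sample, the authors deposited log2 values of each probe set, made with Affymetrix Power Tools and RMA, per the submitters' processing notes, which give no settings. Probe sets were designed on human genes, so a mismatch to the vervet sequence can lower a signal. Of the probe sets, 62 controls, 1801 with several symbols and 11721 without one were left out, and 41091 with 1 symbol were used. The 39 members have 78 of them, and all 39 symbols match the RefSeq vervet annotation. No sequences or coordinates are given.

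Differences were taken on the log2 scale. The difference between animals (2 residual degrees of freedom) and the common and opposed changes (1 each) were fitted over 9888 genes with limma 3.58.1 in R 4.3.3 (lmFit, eBayes with a trend, Benjamini-Hochberg, adjusted p under 0.05), and the procedure was checked on simulated data. The number of arrays limits the precision. Members, lists and tests were chosen with earlier results of these data known. Named genes were the catalytic subunits, activators, PSMF1, PSMG genes, the 3 largest changes each way in core, cap and cap chaperones, members past 2-fold, and the leading genes of the pathway lists. Alternatives were other level filters, normalisations, probe set choices and fold thresholds, no trend, a replicate block and leaving out each sample.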

Additional observations from a re-analysis of the deposited data

Results flagged for a closer look

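The 2 animals' changes had opposite signs, with 1 change per animal, so the difference between them was not tested for the medians. The median change of the proteasome genes was 0.20 in the calorie restriction and -0.38 in the ad libitum animal. For core subunits it was 0.23 and -0.36, for cap subunits 0.16 and -0.62, and for the 3 activators 0.25 and -0.98. The activators had -0.042 and -0.58 with probe sets averaged per gene, so their signs no longer opposed. Of single genes past 2-fold in 1 animal, the calorie restriction change exceeded the ad libitum change by 1.40 for PSMB3, 1.10 for PSMC4, 1.68 for PSMD14 and 1.35 for PSME4, on the log2 scale. For these 4 genes the opposed change was tested with limma and none passed an adjusted p of 0.05. Groups of 2 samples are too small for a check of single outlying samples.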

How the results depend on the processing

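The medians over all members, core and cap kept their sign in both animals under the alternatives run, but that of the activators did not: with the mean of all probe sets it was -0.042 under calorie restriction and -0.58 in the ad libitum animal. Without the less specific probe sets, which leaves PSME1 and PSME4, it was 0.11 and -0.30, and repeated quantile normalisation gave -0.86 in the ad libitum animal. In the ad libitum animal, repeated quantile normalisation gave -0.25 for all members, -0.23 for core and -0.50 for cap, where the median over all genes was 0.06. The mean of all probe sets gave -0.25 for core. Of 38 members, 2 were past 2-fold lower there after cyclic loess, against 6.11% of all genes. After repeated quantile normalisation it was also 2, against 5.49% (PSMB3 and PSMD14 in both). At 1.5-fold, 13 of 38 were lower after each of these, against 14.2% and 12.6% of all genes, where the main setting gave 14. Without the less specific probe sets 23 of 26 members were below 0, against 49.0% of all genes. In the calorie restriction animal, 10 of 36 members were below 0 when probe sets were averaged, against 51.7% of all genes. After repeated quantile normalisation it was 3 of 38, against 48.2%. In the ad libitum animal, averaging moved PSMB2 to -0.09 and PSMG4 to -0.13, by over 1.5-fold. It gives equal weight to their other probe sets, whose mean signals, 2.28 to 4.87 for PSMB2 and 2.00 to 4.75 for PSMG4, lay under the filter of 5.26. The causes were not tested.

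Leaving out each sample, the median difference between animals ran from -0.21 to 0.24, members called numbered 0 each time, and genes called over the whole array ran from 0 to 474, the highest without the ad libitum animal's sample 1, where the lone sample is assumed to vary like the others. With the sample number as a replicate block, 0 members were called. Same-numbered samples share only a number, and their deviations from the animal mean had a Pearson r of -0.27 over 9888 genes, which are not independent. With crossed pairs, added after seeing the data, 0 members were called. Signal over background was not analysed.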
